A study of Mus musculus with 5 samples.

Results

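The receptors through which macrophages bind immunoglobulin G (IgG) were followed in 5 RNA libraries of mouse bone marrow-derived macrophages. The genes were chosen by symbol: Fcgr1, Fcgr3 and Fcgr4, which encode the activating Fc gamma receptors, Fcgr2b, which encodes the inhibitory one, Fcer1g, which encodes the common gamma chain, and Syk, which encodes the kinase that binds that chain. All 6 were present among the 24419 gene rows of the data, and all 6 were among the 10088 genes tested. Bone marrow cells of C57BL/6 mice had been grown with M-CSF (50 ng/ml, 5 days) into macrophages and activated with LPS at 100 ng/ml, so every library comes from LPS-treated cells. The macrophages were then kept for 18 h with PBS (2 libraries) or with semaphorin 3G (Sema3G) at 100 ng/ml (3 libraries). Sema3G is a secreted class 3 semaphorin whose receptor complex on these cells contains neuropilin-2. The study's methods describe recombinant Sema3G as Fc-tagged and purified on a Protein G column, without saying so again for these libraries, and no group received an Fc protein without Sema3G, so effects of such a tag and of Sema3G cannot be told apart here. Whether the libraries of a group came from separate animals or cultures is not stated, so the p-values measure the spread between these samples, which may be technical.

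Activating Fc gamma receptors carry an IgG-binding chain that pairs with the common gamma chain. When an immune complex gathers several receptors, Src family kinases phosphorylate a pair of tyrosines in the gamma chain, the immunoreceptor tyrosine-based activation motif (ITAM), and Syk docks on them and starts phagocytosis and cytokine release. Fcgr2b has no gamma chain. It carries an inhibitory motif (ITIM) with a single tyrosine, which recruits the inositol phosphatase SHIP1, and the relative amounts of activating and inhibitory receptors set how strongly a macrophage answers an immune complex.

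Both motifs are shown as coding sequence because they are what separates the activating from the inhibitory arm. The bases were read from GENCODE M21 transcripts (GRCm38, the assembly called mm10) by translating each coding sequence, and capitals mark the tyrosine codons.
Fcer1g ITAM, residues 65 to 79 of 86: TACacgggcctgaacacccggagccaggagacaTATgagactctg
Fcgr2b ITIM, residues 317 to 322 of 340: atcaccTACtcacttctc
The ITAM was searched as tyrosine, any 2 residues, leucine or isoleucine, 6 to 8 residues and the same tyrosine block again. Among the 6 proteins only Fcer1g matched, as did 616 of 21562 mouse proteins (2.86%). The ITIM search (isoleucine, leucine, valine or serine, any residue, tyrosine, any 2 residues, then isoleucine, leucine or valine) is loose. It matched 48.9% of all proteins, and also 3 places in Fcgr1, 1 in Fcgr4 and 1 in Fcer1g, so it serves only to locate the Fcgr2b motif.

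Apart from Fcgr1 and Syk, the genes lie close together. Fcgr2b (ENSMUSG00000026656.15) spans chr1:170958617-170976547 on the minus strand, Fcgr4 (ENSMUSG00000059089.4) chr1:171018920-171029761 on the plus strand and Fcgr3 (ENSMUSG00000059498.13) chr1:171051174-171064935 on the minus strand. Fcer1g (ENSMUSG00000058715.11) follows at chr1:171229572-171234365 on the minus strand. The gap is 42372 bp between Fcgr2b and Fcgr4, 21412 bp between Fcgr4 and Fcgr3 and 164636 bp between Fcgr3 and Fcer1g, and the last gap holds 7 protein-coding genes. Fcgr1 (ENSMUSG00000015947.10), the gene of the high-affinity receptor, is elsewhere, at chr3:96282909-96293969 on the minus strand, and Syk (ENSMUSG00000021457.14) is at chr13:52583173-52648792 on the plus strand.

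Fcgr2b and Fcgr3 are the closest pair in sequence. Their proteins, of 340 and 267 residues, were identical at 65.8% of 263 aligned residues, whereas the other receptor pairs were identical at 36.6% to 46.4%. Because the libraries read the 3′ ends of transcripts in 75-base reads, sharing of reads was checked over the last 500 bases of every coding transcript. None of the 75-base stretches there occurred in another gene for any of the 6 genes. Over whole transcripts, 94 of the 1627 stretches of Fcgr3 were shared with Fcgr2b, and 313 of the 3791 of Fcgr2b with Fcgr3 or other genes. An exon of Gm38204 overlaps Fcgr2b on the opposite strand, and it is not stated whether strand was used in counting.

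The values are CPM, the counts of unique molecular identifiers (UMIs, the tags that mark single cDNA molecules) scaled to a common library total. Each transcript is tagged near its 3′ end, so CPM of different genes can be compared without correcting for length. Library totals ranged from 1798469 to 2215855 UMIs, and 3 UMIs corresponded to 1.35 to 1.67 CPM. Genes listed in the data held 75.6% to 77.6% of the UMIs with PBS and 65.9% to 71.3% with Sema3G, and Rn45s, the ribosomal RNA precursor, held 1.01% to 3.19% and 6.31% to 7.88%. The log2 fold change of all genes tested had a median of -0.22, and 67.5% of them were below 0, so the values below are also given relative to that median. Macrophage markers were abundant, at 9133 to 12170 summed CPM with PBS and 8842 to 9149 with Sema3G for the list of 8, which holds Fcgr1 and in which Mertk was lowest at 0 to 2.78 CPM. All 5 NK cell markers were at 0 in every library, as were 4 of 5 B cell, 5 of 6 mast cell and basophil, 4 of 6 dendritic cell and 3 of 5 T cell markers. Of the T and B cell markers not at 0, Cd4 was at 2.30 to 9.89 CPM, Cd79b at 0 to 2.75 CPM and Lck at 0 to 2.22 CPM. Of 6 neutrophil markers with a row, Elane and Ngp were at 0 and S100a8 was at 102 to 165 CPM. The remaining ones were low, S100a9 at 1.07 to 1.84 CPM, Camp at 0 to 2.14 CPM and Mpo at 0 to 0.54 CPM. Libraries of the same group were not equally alike. Over the genes with at least 20 UMIs in a pair, the chi-square per degree of freedom was 1.77 between Sema3G replicates 2 and 3, 6.57 and 7.57 between replicate 1 and these, and 11.35 between the PBS libraries, while pairs across the groups ranged from 12.2 to 29.6.

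None of the 6 genes passed the test between Sema3G and PBS at an adjusted p below 0.05 (limma on log2(CPM + 1), Benjamini-Hochberg over all genes tested). In the same fit 1.8% of all genes passed, 1.59% higher and 0.218% lower with Sema3G (160 and 22 genes). The split was 350 higher and 3 lower with TMM scaling (edgeR factors that align the bulk of the genes between libraries), and 481 higher and 1 lower with CPM recomputed over listed genes after leaving out Rn45s (Rn45s-free CPM). At an unadjusted limma p below 0.05, Fcgr2b, Fcgr3 and Fcgr4 were lower, 3 of 6, and 0 were higher, and edgeR's quasi-likelihood test and DESeq2 on UMI counts called none after adjustment. Over all genes tested the unadjusted shares were 14.2% lower and 6.83% higher. For Fcgr2b, Fcgr3 and Syk, again 3 of 6, every Sema3G library was below both PBS libraries, which was the case for 26.5% of all genes tested. The median log2 fold change of the 6 genes was -0.40, or -0.17 relative to all genes.

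**Figure D1:**
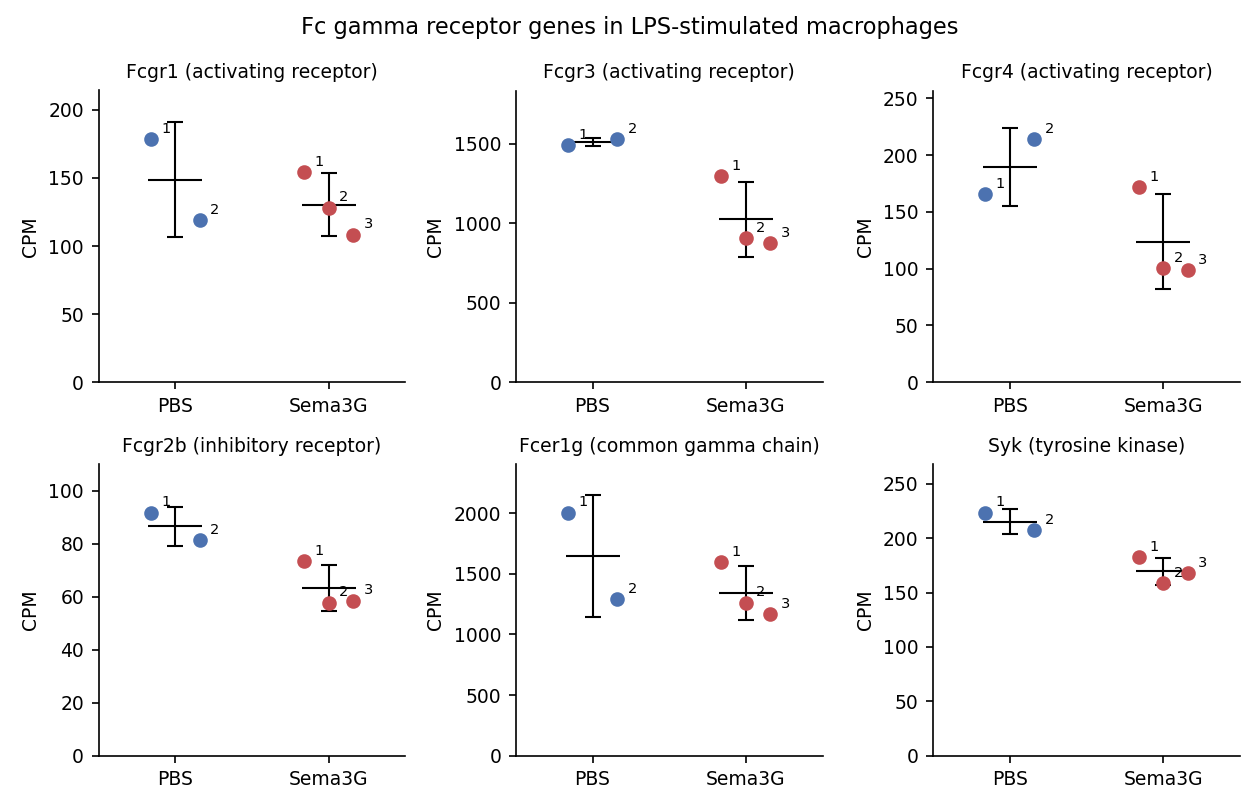
Levels of the 6 genes in CPM (vertical axes, each from 0) in the PBS libraries (blue) and the Sema3G libraries (red), numbered by replicate. Horizontal lines are group means and bars are 1 SD (n = 2 and n = 3). The groups are separate for Fcgr3, Fcgr2b and Syk and overlap for Fcgr1, Fcgr4 and Fcer1g.

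Fcgr3, the low-affinity activating receptor, made up most of the receptor mRNA. It was at 1491 and 1528 CPM in PBS replicates 1 and 2 and at 1294, 903 and 872 CPM in Sema3G replicates 1, 2 and 3. The PBS libraries were nearly equal, all 3 Sema3G libraries were below them, and Sema3G replicate 1 was the nearest. Group means were 1509 ± 25.96 CPM (SD, n = 2) and 1023 ± 235 CPM (SD, n = 3). The log2 fold change was -0.58 (standard error 0.23, 95% interval -1.06 to -0.11, limma adjusted p = 0.163), or -0.36 relative to the median of all genes. Without Sema3G replicate 1 it was -0.77 with a limma adjusted p of 0.0268, and leaving out any other library gave limma adjusted p-values from 0.210 to 0.518. In bulk RNA, fewer cells of a type and less of an mRNA per cell cannot be told apart.

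Fcgr4, a further activating receptor and a neighbor of Fcgr3 on the chromosome, was at 165 and 214 CPM with PBS and at 172, 100.2 and 98.6 CPM with Sema3G. Sema3G replicate 1 lay between the PBS libraries, so the groups overlapped, while replicates 2 and 3 were below both. Its log2 fold change of -0.65 was the lowest among the 6 genes (standard error 0.23, 95% interval -1.14 to -0.17, limma adjusted p = 0.136), or -0.43 relative to all genes. This gene, like Fcgr3, passed the test only without Sema3G replicate 1, where the log2 fold change was -0.91 (limma adjusted p = 0.0192). That fit called more genes in general, 440 lower and 270 higher.

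Fcgr1, the high-affinity receptor, was at 179 and 119 CPM with PBS and at 155, 128 and 108 CPM with Sema3G. The PBS libraries bracketed 2 of the 3 Sema3G libraries. Its log2 fold change was -0.17 (standard error 0.21, 95% interval -0.62 to 0.27, limma adjusted p = 0.655) and its direction depended on the scaling, since it was 0.05 with TMM factors and 0.12 with Rn45s-free CPM. Without PBS replicate 1 it was likewise 0.12. Relative to the median of all genes it was 0.05.

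Fcgr2b, the inhibitory receptor, had the lowest level of the 6 genes. It was at 91.8 and 81.4 CPM with PBS and at 73.4, 57.8 and 58.5 CPM with Sema3G, which corresponds to between 127 and 167 UMIs per library. As for Fcgr3, all 3 Sema3G libraries were below both PBS libraries. Group means were 86.6 ± 7.34 CPM (SD, n = 2) and 63.2 ± 8.81 CPM (SD, n = 3). The log2 fold change was -0.45 (standard error 0.20, 95% interval -0.87 to -0.03, limma adjusted p = 0.210), or -0.23 relative to all genes, and its lowest adjusted p under any alternative was 0.0764, without Sema3G replicate 1.

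Fcer1g, whose product carries the ITAM shown above, had the highest mean level of the 6 genes. It was at 2005 and 1293 CPM with PBS and at 1597, 1262 and 1169 CPM with Sema3G. PBS replicate 1 was the highest library and PBS replicate 2 lay among the Sema3G libraries. Its log2 fold change was -0.27 (standard error 0.25, 95% interval -0.79 to 0.24, limma adjusted p = 0.523), and it changed sign to 0.02 with Rn45s-free CPM and to 0.04 without PBS replicate 1. Relative to the median of all genes it was -0.05.

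Syk, the kinase downstream of the gamma chain, was at 224 and 207 CPM with PBS and at 183, 158 and 168 CPM with Sema3G. The groups did not overlap, and the spread within each was small (SD 11.6 and 12.4 CPM). Syk had a log2 fold change of -0.34 (standard error 0.18, 95% interval -0.72 to 0.03, limma adjusted p = 0.278), or -0.12 relative to all genes. With Rn45s-free CPM, which leaves out both Rn45s and the UMIs outside the listed genes, the log2 fold changes were -0.36 for Fcgr4, -0.29 for Fcgr3, -0.17 for Fcgr2b and -0.05 for Syk, while relative to the median of all genes in that fit they were -0.41, -0.34, -0.21 and -0.10. The part of Rn45s alone in these differences was not tested.

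**Figure D2:**
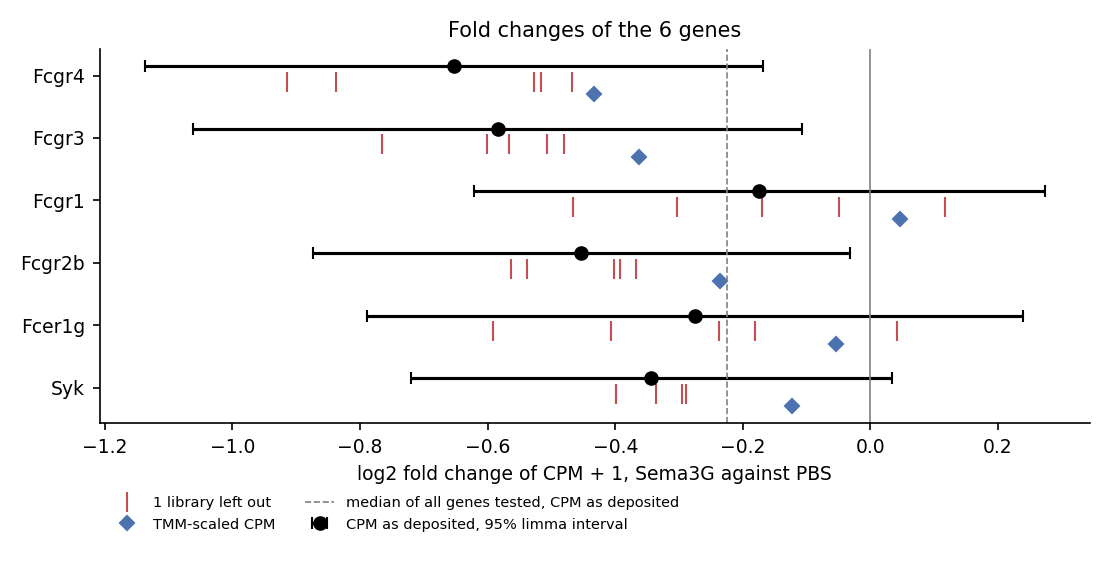
Log2 fold change of CPM + 1, Sema3G against PBS (horizontal axis), for the 6 genes. Black points with bars are the limma estimates with 95% intervals, red ticks the estimates with 1 library left out, blue diamonds those from TMM-scaled CPM, and the dashed line the median of all genes tested (-0.22). The intervals of Fcgr4, Fcgr3 and Fcgr2b lie below 0 but contain that median, and the blue diamond of Fcgr1 lies above 0.

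Ordered by mean CPM over the 5 libraries, the genes ran Fcer1g, Fcgr3, Syk, Fcgr4, Fcgr1 and Fcgr2b. Fcer1g was above Fcgr3 in 4 of 5 libraries, PBS replicate 2 being the exception, so these neighbors in the order were not cleanly separated. Fcgr3 was above Syk in 5 of 5 libraries, by 5.20-fold to 7.37-fold. Syk was above Fcgr4 in 4 of 5 libraries, and Fcgr4 above Fcgr1 in only 2 of 5, so the places of Fcgr4 and Fcgr1 could not be told apart. Fcgr1 was above Fcgr2b in all 5, by 1.46-fold to 2.22-fold. The inhibitory receptor was thus last in every library.

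The balance of activating and inhibitory receptors was read as the UMIs of Fcgr1, Fcgr3 and Fcgr4 together over the UMIs of Fcgr2b in the same library, a ratio that does not depend on the library total. It describes mRNA only, since receptor protein was not measured, and most of its numerator is Fcgr3. In PBS replicates 1 and 2 the ratio was 20 and 22.9, and in Sema3G replicates 1, 2 and 3 it was 22.1, 19.6 and 18.4. The group ranges overlapped, and the means were 21.4 ± 2.03 (SD, n = 2) and 20.03 ± 1.86 (SD, n = 3). The log2 difference of the ratio was -0.10, with p = 0.4 in an exact two-sided permutation test, in which 2 libraries against 3 can reach 0.2 at the lowest. After adjustment over the 6 ratios computed the exact permutation p was 0.6. With 1 library left out, the log2 difference was lowest without PBS replicate 1 (-0.19) and nearest to 0 without PBS replicate 2 (-0.0016). A p-value of this size does not show that the balance was the same.

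Taken singly against Fcgr2b, the activating receptors gave differences of both signs. Fcgr1 over Fcgr2b was 1.95 and 1.46 for PBS against 2.11, 2.22 and 1.85 for Sema3G, a log2 difference of 0.28. Fcgr3 over Fcgr2b was 16.3 and 18.8 against 17.6, 15.6 and 14.9, a log2 difference of -0.13. Fcgr4 over Fcgr2b was 1.80 and 2.63 against 2.34, 1.73 and 1.69, a log2 difference of -0.20. Each of these ratios overlapped between the groups and had an exact permutation p of 0.4 (0.6 adjusted over the 6 ratios). The activating receptors over their partner Fcer1g were at 0.915 and 1.44 with PBS and at 1.01, 0.897 and 0.923 with Sema3G (exact permutation p = 0.6, adjusted p = 0.72). PBS replicate 2 had the highest value of this ratio. Syk over Fcer1g was 0.112 and 0.1602 with PBS and 0.115, 0.125 and 0.144 with Sema3G (exact permutation p = 1).

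As shares of the UMIs of the 4 receptors, Fcgr3 held 77.4% and 78.7% for PBS against 76.4%, 75.9% and 76.7% for Sema3G. The groups did not overlap, but the group means differed by little, 78.0% ± 0.904 (SD, n = 2) against 76.3% ± 0.360 (SD, n = 3), with an exact permutation p of 0.2, the lowest possible (0.533 adjusted over the 4 shares). The exact 95% binomial intervals of single libraries, which cover counting error only, ran from 76.0% to 78.8% for PBS replicate 1 and from 74.9% to 78.3% for Sema3G replicate 3, and so overlapped. Fcgr2b held 4.76% and 4.19% with PBS and 4.33%, 4.86% and 5.15% with Sema3G. The groups overlapped (exact permutation p = 0.4, 0.533 adjusted over the 4 shares). Fcgr1 held 9.27% and 6.12% with PBS and 9.13% to 10.8% with Sema3G, and Fcgr4 held 8.58% and 11.03% with PBS and 8.42% to 10.1% with Sema3G (exact permutation p of 0.4 and 0.6). For both genes PBS replicate 2 stood apart from PBS replicate 1 beyond counting error. The interval of Fcgr1 in PBS replicate 2, 5.36% to 6.95%, lay below those of all 4 other libraries, and that of Fcgr4, 10.02% to 12.1%, lay above those of PBS replicate 1 and Sema3G replicates 2 and 3. The summed level of the 4 receptors was 1927 and 1942 CPM with PBS and 1694, 1189.6 and 1138 CPM with Sema3G. The Sema3G mean was 0.693 times the PBS mean (1340.3 ± 307 CPM, n = 3, against 1934.5 ± 10.9 CPM, n = 2, exact permutation p = 0.2), and most of this sum is Fcgr3.

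**Figure D3:**
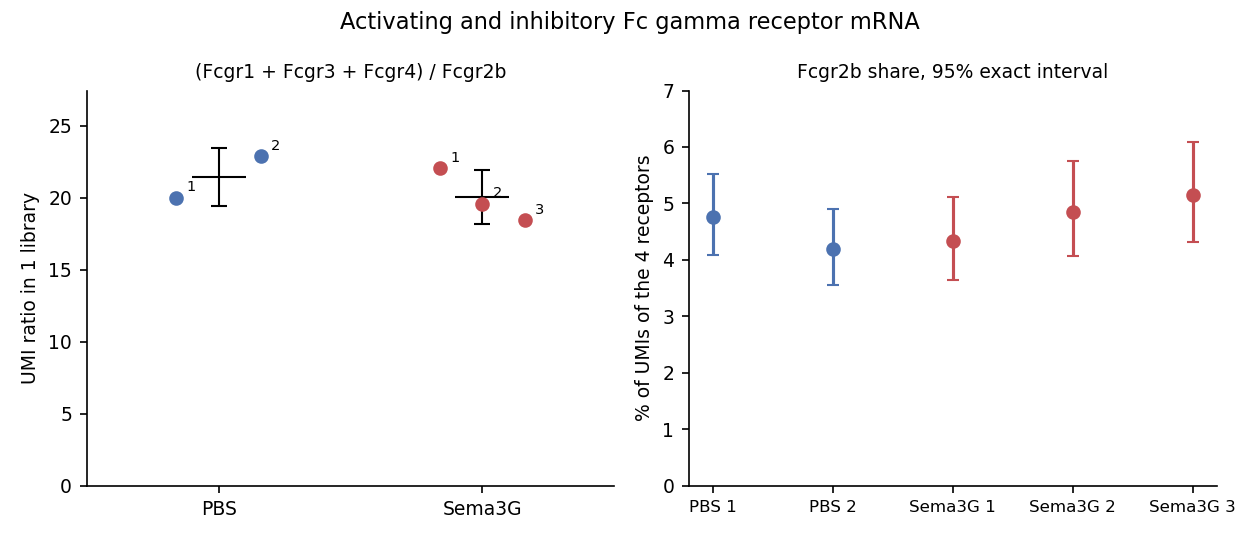
Left, the ratio of Fcgr1, Fcgr3 and Fcgr4 UMIs to Fcgr2b UMIs in each library (vertical axis, from 0), with group means and 1 SD bars (n = 2 and n = 3). Right, Fcgr2b as a percentage of the UMIs of the 4 receptors in each library, with exact 95% binomial intervals that cover counting error only. The PBS and Sema3G values overlap in both panels.

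The 4 receptor genes differed in how their levels ran over the 5 libraries. Profiles were compared as the root mean square difference of log2(CPM + 1) after centring each gene on its own mean, among the 2244 genes that averaged 50 CPM or more. These are descriptions over 5 libraries that share their depth and composition, and counting error was not taken out. The receptor profiles differed in size, with a root mean square of 0.26 for Fcgr1 and Fcgr2b, 0.35 for Fcgr3 and 0.44 for Fcgr4. Counts of genes within a fixed difference are therefore not a trait of the receptor alone. Fcgr1 ran closest to Nadk (0.04), Srek1ip1 (0.05) and Atp6v1a (0.06), and Fcer1g was almost as near to it (0.07), with PBS replicate 1 high in both. Fcgr3 ran closest to Psmb1 (0.02), Psmd8 (0.03) and Snhg8 (0.04), and Fcgr2b ran closest to Dhrs3 (0.03), Slc25a39 (0.03) and Rpl37 (0.03). Fcgr2b had 252 genes within a difference of 0.1, against 141 for Fcgr3 and 42 for Fcgr1. Fcgr4 had only 5 such genes, the nearest being Vwa5a (0.04), Tecr (0.08) and Rpsa (0.09). Among the receptors its nearest was Fcgr3 (0.14) and its farthest Fcgr1 (0.41), and for Fcer1g the difference was 0.39.

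The other genes of the pathway were taken from 6 lists with 86 genes, of which 85 had a row and 67 were tested. Of the 67, 1 gene rose with Sema3G and none fell at a limma adjusted p below 0.05, where 1.59% and 0.218% of all genes did. Their median log2 fold change was -0.28, close to that of all genes (-0.05 relative to it), and 47 of the 67 were below 0. At an unadjusted limma p below 0.05, 15 of the 67 were lower and 8 higher, against 14.2% and 6.83% of all genes. More of these genes passed as higher with other settings, 5 with TMM scaling, 7 with edgeR's quasi-likelihood test and 8 with Rn45s-free CPM, in fits that called 350, 380 and 481 of all genes higher. Without Sema3G replicate 1 the count was 4 higher and 5 lower, beside 270 and 440 of all genes.

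The gene that rose was Cbl, an E3 ubiquitin ligase that marks activated kinases, Syk among them, for degradation. It was at 19.8 and 12.3 CPM with PBS and at 56.2, 92.5 and 85.7 CPM with Sema3G. All 3 Sema3G libraries were above both PBS libraries, and Sema3G replicate 1 was again the nearest to PBS. The log2 fold change was 2.22 (standard error 0.26, 95% interval 1.67 to 2.76, limma adjusted p = 0.000185), and Cbl passed under all 14 alternatives with log2 fold changes between 1.90 and 2.55. Cbl belongs to the list of inhibitory phosphatases, adaptors and ligases, in which 1 of 13 tested genes rose (1.59% of all genes), none fell and the median was 0.11, or 0.34 relative to all genes. At an unadjusted limma p below 0.05, 3 of the 13 were higher and 1 lower (6.83% and 14.2% of all genes), and after adjustment edgeR called 2 higher and DESeq2 1, beside 380 and 230 of all genes. Without Sema3G replicate 1, 1 of the 13 was called lower, beside 440 of all genes. Inpp5d, the gene of SHIP1 and chosen after its values were seen, was at 82.4 and 77.6 CPM with PBS and at 85.1, 64.1 and 59.9 CPM with Sema3G (log2 fold change -0.21, limma adjusted p = 0.560).

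Among the Src family kinases, which phosphorylate the ITAM, 5 of 8 genes were tested and 0 passed in either direction (2 lower at an unadjusted limma p below 0.05, where 14.2% of all genes were, and 0 by edgeR or DESeq2 after adjustment), with a median log2 fold change of -0.52 (-0.29 relative to all genes). Without Sema3G replicate 1 limma called 2 of the 5 lower, beside 440 of all genes. Lyn, the highest at 187 to 227 CPM, was near level (-0.06, limma adjusted p = 0.873). The activating adaptors and effectors, from the adaptor Lat2 to the exchange factors Vav1 and Vav3, had 20 of 22 genes tested and 0 called, with a median of -0.17. At an unadjusted limma p below 0.05, 4 of them were higher and 2 lower (6.83% and 14.2% of all genes), and after adjustment edgeR called 4 higher and DESeq2 1, beside 380 and 230 of all genes. Without Sema3G replicate 1 limma called 3 higher and 1 lower, the GTPase Rac2, named after its values were seen (log2 fold change -0.83, adjusted p = 0.0248). Cdc42, a GTPase of the phagocytic cup, was the highest at 588 to 953 CPM (log2 fold change -0.37, limma adjusted p = 0.308). Tec, a kinase that acts on phospholipase C gamma, had the largest difference, from 4.94 and 5.35 CPM to 8.90, 17.1 and 17.5 CPM (log2 fold change 1.28, limma adjusted p = 0.0804). Tec passed in 4 of the 14 alternatives, with TMM scaling, Rn45s-free CPM, edgeR and without Sema3G replicate 1, at log2 fold changes of 1.52 to 1.75. In the same list Ptprc passed as higher in 6 alternatives, Pik3r1 in 4 and Vav3 in 3, all named after their values were seen.

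Other receptors that use Syk or carry an ITIM were compared with Fcer1g and Fcgr2b. Of the other Syk-coupled receptors and adaptors, 12 of 14 genes were tested and 0 passed, with a median log2 fold change of -0.29. At an unadjusted limma p below 0.05, 1 was higher and 4 lower (6.83% and 14.2% of all genes), and edgeR and DESeq2 each called 1 higher after adjustment, beside 380 and 230 of all genes. Clec4d, a C-type lectin receptor that pairs with Fcer1g, was the highest at 1122 to 2010 CPM and had, like Fcer1g, its highest value in PBS replicate 1 (log2 fold change -0.45, limma adjusted p = 0.272). Clec7a, the receptor for beta-glucan, had the largest difference, from 119 and 96.9 CPM to 187, 176 and 159 CPM (log2 fold change 0.69, limma adjusted p = 0.0671). Clec7a passed in 5 of the 14 alternatives, with TMM scaling, Rn45s-free CPM, edgeR, DESeq2 and the replicate block, at log2 fold changes of 0.76 to 0.98. In the same list the replicate block called 2 genes lower, Clec4n (-0.56, limma adjusted p = 0.0222) and Nfam1 (-0.59, limma adjusted p = 0.0228), and Nfam1 was also called without Sema3G replicate 1 (-0.91, limma adjusted p = 0.0261). Both were named after their values were seen, and these fits called 275 and 440 of all genes lower. The replicate block has the same estimates as the fit without Sema3G replicate 3, in which 0 genes of this list passed. Of the other ITIM receptors, 14 genes had a row and were tested, 0 passed, and 13 of the 14 were below 0 (67.5% of all genes) with a median of -0.41 (-0.19 relative to all genes), beside -0.45 for Fcgr2b. At an unadjusted limma p below 0.05, 6 of these 14 were lower (14.2% of all genes), and edgeR and DESeq2 called 0 after adjustment. Sirpa, the receptor for CD47, was the highest at 577 to 1014 CPM (log2 fold change -0.47, limma adjusted p = 0.212), and Siglece, a receptor for sialic acid, had the largest difference, from 26.9 and 27.8 CPM to 17.2, 17.6 and 17.1 CPM (log2 fold change -0.63, limma adjusted p = 0.175).

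Most other Fc receptors were not detected. Of 14 other Fc and IgG-binding receptors, 9 were at 0 UMIs in every library, which allows levels up to 1.35 to 1.67 CPM, among them Fcer1a and Ms4a2, the other chains of the IgE receptor that also uses Fcer1g. Only 3 were tested, and 0 passed after adjustment or at an unadjusted limma p below 0.05, nor by edgeR or DESeq2. Fcgrt, the neonatal Fc receptor that recycles IgG, was the highest, at 45.6 and 28.4 CPM with PBS and at 40.0, 26.2 and 20.3 CPM with Sema3G (log2 fold change -0.36, limma adjusted p = 0.465). Fcrls had the largest difference (log2 fold change -0.63, limma adjusted p = 0.574). Its PBS libraries were far apart, at 46.7 and 4.82 CPM, beside 23.4, 6.32 and 5.99 CPM with Sema3G, and its direction depended on the PBS library. PBS replicate 1 was above all 3 Sema3G libraries and PBS replicate 2 below them, and leaving out PBS replicate 2 gave -2.15 (limma adjusted p = 0.021).

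**Figure D4:**
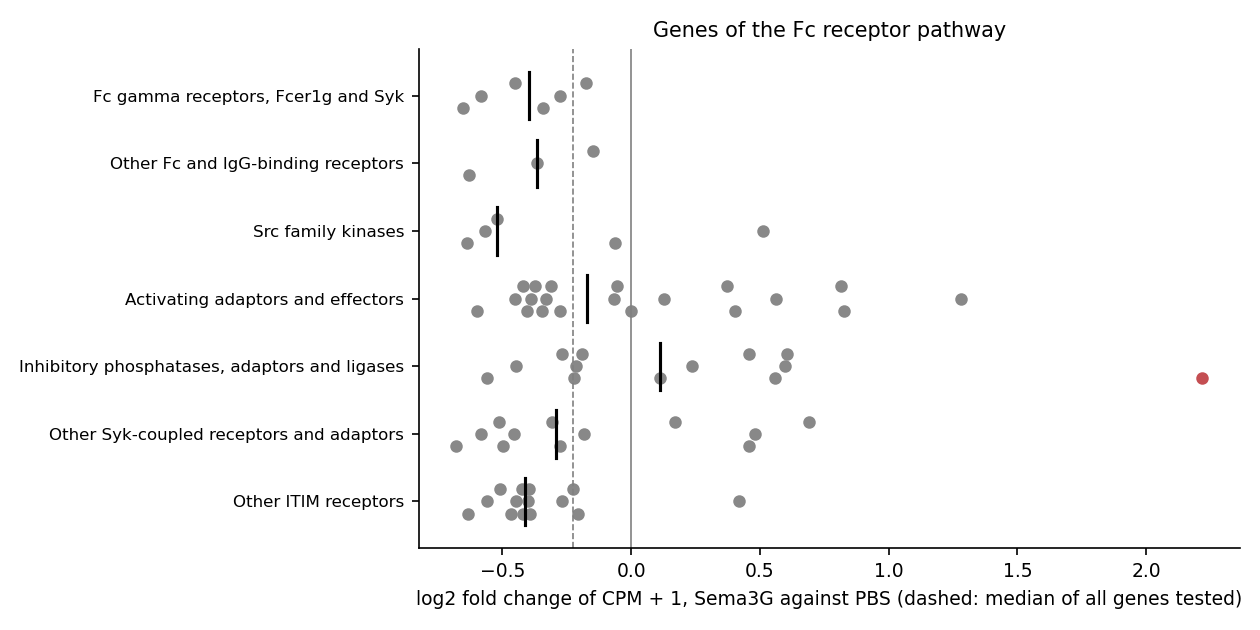
Log2 fold change of CPM + 1, Sema3G against PBS (horizontal axis), for the 6 genes and the 67 tested genes of the 6 pathway lists. Each point is a gene, red where the limma adjusted p is below 0.05, black bars are list medians and the dashed line is the median of all genes tested (-0.22). Cbl at 2.22 is the single red point, and 13 of the 14 other ITIM receptors lie below 0.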

How the data were processed

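RNA 3′ ends of 5 samples were sequenced with a QuantSeq FWD kit and UMIs. Reads had been mapped to mm10 and UMIs counted with Strand NGS, and the authors normalized them with edgeR (3.12 per the submitters' processing notes) and deposited CPM values. Another 3 deposited columns, of the authors' own comparison, were not used. In each library every CPM value is a multiple of that of 1 UMI (100% within 0.01 of a whole count), which returned the UMI counts and the library totals.

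The 10088 genes averaging 1 CPM or more were fitted as log2(CPM + 1) with limma (3.58.1, R 4.3.3, mean-variance trend) for all 5 samples by group, with Benjamini-Hochberg adjustment. Such fold changes understate those of low genes. Alternatives, given in the closing section, changed the pseudocount, filter, scaling, test (edgeR 4.0.16 and DESeq2 1.42.0 on UMI counts) and replicate block, or left out each library. Ratios were tested by exact permutation (scipy 1.17.1). Gene models came from GENCODE M21.

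The genes and lists were chosen with earlier results of these data known. In each pathway list, the genes past the adjusted p were named, or otherwise the highest-expressed one and the one with the largest absolute log2 fold change; for each receptor, the 3 genes with the nearest profile. A gene that this rule names is not reported here.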

Additional observations from a re-analysis of the deposited data

How the results depend on the processing

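The 6 genes were refitted under 14 alternatives. Fcgr2b, Fcgr3, Fcgr4 and Syk stayed below 0 in all 14, Fcer1g in 12 and Fcgr1 in 9. The 14 are not independent, since the changed filters repeat the main log2 fold changes and the replicate block repeats those without Sema3G replicate 3. Fcgr1 turned positive with TMM scaling (0.046), Rn45s-free CPM (0.12), edgeR's quasi-likelihood test (0.058), DESeq2 (0.028) and without PBS replicate 1 (0.12), and Fcer1g with Rn45s-free CPM (0.016) and without PBS replicate 1 (0.041). With single libraries left out, the log2 fold change ranged from -0.47 to 0.12 for Fcgr1 and from -0.59 to 0.04 for Fcer1g. Of the 6 genes, 0 to 2 were called lower with a library left out, the 2 being Fcgr3 and Fcgr4 without Sema3G replicate 1, where 440 of all genes were called lower against 22 with all libraries. The log2 balance of activating to inhibitory receptors turned to 0.28 with Fcgr1 alone as the activating receptor, and ranged from -0.19 to -0.0016 with single libraries left out.

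Of the pathway genes, 5 were called higher with TMM scaling, 8 with Rn45s-free CPM, 7 with edgeR and 3 with DESeq2. Leaving out single libraries gave 1 to 4 higher and 0 to 5 lower. Over all genes, calls were 160 higher and 22 lower; they were 104 and 4 with no filter, 350 and 3 with TMM scaling, 481 and 1 with Rn45s-free CPM, and 380 and 3 with edgeR, while lower calls were 5 with a pseudocount of 0.1 and 1 with DESeq2. Leaving out single libraries gave 27 to 270 higher and 0 to 440 lower. The cause was not tested.

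The groups share replicate numbers 1 and 2, but nothing says that a number pairs samples, and the deviations of same-numbered samples correlated at 0.173 and 0.111 across genes. With the replicate block, 0 of the 6 genes, 4 pathway genes higher and 2 lower, and 298 genes higher and 275 lower were called, and the log2 balance was -0.04. Replicate 3 exists only with Sema3G, so the block absorbs that library. Its estimates are those without Sema3G replicate 3 (log2 fold change of Fcgr3 -0.48 in both), so the block is no separate check of them. With 2 PBS libraries, the spread of that group rests on 1 difference, and a library left out there is assumed to vary like the Sema3G group.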
